A study of Mus musculus with 4 samples.

Results

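The receptors described here are 7 surface receptors by which natural killer cells and activated killer T cells sense their targets: Klrd1 (CD94), Klre1, Klrc1 (NKG2A), Klrg1, Klrk1 (NKG2D), Ncr1 (NKp46) and Klrb1c (NK1.1). They were measured on Affymetrix mouse expression arrays by every probe set, a group of short probes for 1 transcript, that the platform annotation gives to 1 of these symbols alone. This rule found 7 of 45101 probe sets, which cover 6 of the 7 genes, among 18193 genes measured on the arrays. Klrc1 had 2 probe sets and Klrb1c had none of its own. All 7 were detected, which here means that 2 or more of the 4 arrays called them Present. Of these, 2 passed only through their calls in splenectomized mice.

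The samples were whole tumour-bearing eyes of C57BL/6 mice, male and female per the labels. Intact mice had no surgery (2 arrays), and splenectomized mice had lost the spleen before tumour challenge (2 arrays). Every mouse of both groups then carried the same tumour, from 10000 E.G7-OVA cells that express luciferase, placed in the anterior chamber of the eye, and eyes were taken on day 15. E.G7-OVA cells are murine T lymphoma cells given the gene of chicken ovalbumin, so T cell transcripts of the tumour and of infiltrating host cells were measured together. No eye without tumour and no sham-operated mouse was analysed here. Each label names a single mouse but the animals carry no numbers, so the p-values measure only the spread between these samples.

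Natural killer cells weigh signals from inhibitory and activating receptors. CD94, the product of Klrd1, pairs with NKG2A, whose cytoplasmic tail recruits phosphatases that damp activation when the pair binds the nonclassical class I molecule Qa-1, while CD94 paired with other NKG2 chains activates. NKG2D and NKp46 carry no such inhibitory tail and signal through adaptor proteins (DAP10 and DAP12 for NKG2D, CD3 zeta and the Fc receptor gamma chain for NKp46). Several of these receptors are also made by activated CD8 T cells, whereas NKp46 is largely kept to natural killer and other innate lymphoid cells. In the RefSeq annotation Klre1, Klrd1, Klrk1 and Klrc1 lie in that order on mouse chromosome 6, in the natural killer gene complex to which Klrb1c also belongs, Klrg1 is on the same chromosome, and Ncr1 is on chromosome 7.

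The promoters of an inhibitory receptor and of both measured activating receptors are shown because these genes were higher in the same samples. Each runs from 250 bases before to 50 bases after an annotated transcript start, in RefSeq's GRCm38.p6, 5′ to 3′ on the gene's strand, and capitals mark matches to the motifs searched.
Klrc1, chr6:129678924-129679223, minus strand: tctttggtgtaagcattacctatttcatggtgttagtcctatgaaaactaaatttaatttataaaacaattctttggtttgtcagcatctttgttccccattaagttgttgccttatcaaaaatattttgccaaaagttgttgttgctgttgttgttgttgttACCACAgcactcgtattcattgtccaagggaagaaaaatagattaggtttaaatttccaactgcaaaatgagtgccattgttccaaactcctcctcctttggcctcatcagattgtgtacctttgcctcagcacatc
Klrk1, chr6:129623815-129624114, minus strand: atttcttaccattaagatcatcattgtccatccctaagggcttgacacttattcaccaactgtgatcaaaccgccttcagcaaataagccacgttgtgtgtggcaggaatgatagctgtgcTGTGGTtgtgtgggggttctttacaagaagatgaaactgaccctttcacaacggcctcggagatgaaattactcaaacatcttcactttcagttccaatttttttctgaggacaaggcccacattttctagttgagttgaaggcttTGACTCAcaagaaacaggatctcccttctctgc
Ncr1, chr7:4337465-4337764, plus strand: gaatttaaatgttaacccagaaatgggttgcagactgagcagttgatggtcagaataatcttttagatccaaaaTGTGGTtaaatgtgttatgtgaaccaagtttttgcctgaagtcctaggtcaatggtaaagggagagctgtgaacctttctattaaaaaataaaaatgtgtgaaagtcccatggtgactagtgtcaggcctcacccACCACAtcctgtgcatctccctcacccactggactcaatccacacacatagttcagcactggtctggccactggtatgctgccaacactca

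The search used 5 motifs on both strands: the RUNX core TGTGGT, the T-box core TCACACC, the ETS core GGAAGT, the AP-1 motif TGANTCA and the STAT motif TTCNNNGAA. In the printed windows no match overlapped another. Of the 7 genes 5 had a promoter in the table. The RUNX core was found in at least 1 window of each of these, Klrc1, Klrk1, Ncr1, Klre1 and Klrb1c, and in 16.8% of all 32851 promoters of the same length. In Klrc1 the match began 87 bases before the start and lay on the opposite strand, in Klrk1 it began 129 bases before, and Ncr1 had matches beginning 176 and 41 bases before. Klrk1 also held an AP-1 match, a motif found in 7.81% of all promoters, and Klrb1c an ETS match, found in 23.8%. The T-box and STAT motifs, found in 3.98% and 8.3% of all promoters, had no match in these windows. A match describes letters in the sequence and is not a site of binding.

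The comparison of splenectomized with intact mice asked how these transcripts in the tumour-bearing eye differed when the spleen was gone. All 7 probe sets had higher signals in splenectomized mice, and for each the lower splenectomized array lay above the higher intact array. Among all 26285 probe sets tested, groups were separated in this direction for 20% and in the opposite direction for 19.7%. In limma, 0 of the 7 had an adjusted p under 0.05, as was so for 0% of all probe sets tested (smallest adjusted p 0.134). At an unadjusted p under 0.05, 7 of 7 were higher, against 5.49% of all probe sets tested, with 2.58% lower and 8.07% in either direction. Among the 17231 tested probe sets with a mean signal inside the range of the receptors, that share was 4.57%. Of the 7, 2 were detected only through splenectomized mice, and 2 read the same gene, Klrc1. With Present calls required on all 4 arrays, 5 of 5 were higher at that p. Under the same rule 1989 of 21447 probe sets passed that p in either direction, a count not split by direction and so not a like share. The receptors were chosen with earlier results of these data known, so these counts are a description. With 1 array left out, the receptors' count at an unadjusted p under 0.05 was 6 without intact replicate 1 and 6 without intact replicate 2, where 5.71% and 19.6% of all probe sets were higher at that p. It was 4 without splenectomized replicate 1 and 2 without splenectomized replicate 2, where these shares were 1.77% and 2.34%. At an adjusted p under 0.05 the count was 2 without intact replicate 1 (1.13% of all) and 5 without intact replicate 2 (10.7% of all). The median log2 fold change of the 7 was 1.81, beside 0.03 for all probe sets tested. Whole eyes mix cell types, so more cells of a type and more RNA per cell cannot be told apart in any of these values.

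**Figure D1:**
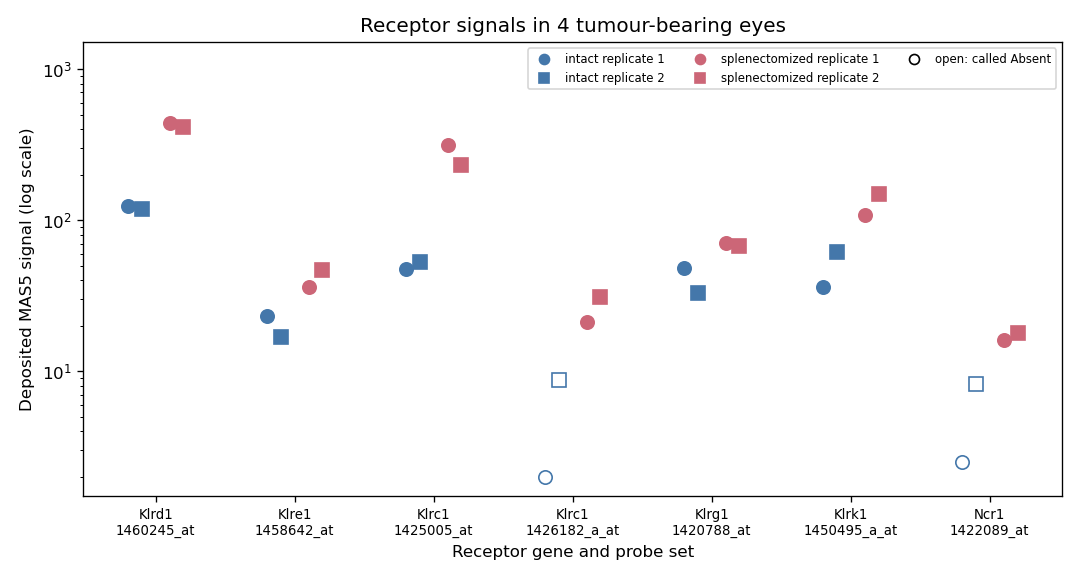
Deposited signal of each receptor probe set (log axis) on each of the 4 arrays, with intact mice in blue, splenectomized mice in red, and open symbols for arrays on which the probe set was called Absent. For every probe set both splenectomized arrays lie above both intact arrays, and the open symbols are the intact arrays of Ncr1 and of 1 Klrc1 probe set.

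Klrd1 encodes CD94, the shared partner chain of the NKG2A heterodimer. Its signal was 125 and 118 in the intact eyes and 442 and 412 in the splenectomized eyes. The arrays within each group were close and the groups were far apart, with each splenectomized array 3.30-fold to 3.74-fold above each intact array. The means were 121 ± 4.74 and 427 ± 21.1 (SD, n = 2 each), 3.51-fold higher, with a log2 fold change of 1.81 ± 0.16 (SE, adjusted p = 0.151 in limma). By unadjusted p it was 8th of all probe sets tested (4.61e-05). Klre1, a receptor chain of mouse natural killer cells that works with an inhibitory or an activating partner of the Klri family, had signals of 23.3 and 16.9 in intact and 36.2 and 46.8 in splenectomized mice. These are dim values, Present on all 4 arrays. The means of 20.1 ± 4.53 and 41.5 ± 7.50 differed 2.07-fold (log2 fold change 1.05 ± 0.35 SE, adjusted p = 0.558 in limma, unadjusted p = 0.0261).

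Among inhibitory receptors, Klrc1, which encodes NKG2A, had the larger difference. Its probe set 1425005_at was at 47.5 and 52.9 in intact and at 315 and 231 in splenectomized mice. The intact pair was nearly level and the splenectomized pair spread more, yet every splenectomized array was at least 4.37-fold above every intact one. The means were 50.2 ± 3.82 and 273 ± 59.2, 5.38-fold higher (log2 fold change 2.43 ± 0.23 SE, adjusted p = 0.157 in limma), 10th of all probe sets by unadjusted p (7.34e-05). The second probe set, 1426182_a_at, which by its suffix covers alternative transcripts of 1 gene, was at 2.0 and 8.8 in intact mice, both called Absent. In splenectomized mice it was at 21.1 and 31.1, both called Present. The nearest arrays across groups were 2.40-fold apart. The fitted log2 fold change was 2.61 ± 0.80 (SE, adjusted p = 0.521 in limma), which takes intact signals that were below detection and so has no firm size. Without intact replicate 1 its log2 fold change was 1.54, and without intact replicate 2 it was 3.68. The first probe set stayed at 2.35 and 2.50 in the same fits.

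Klrg1 is an inhibitory receptor for cadherins found on matured natural killer cells and effector T cells. Its signal was 48.3 and 32.9 in intact and 70.3 and 67.5 in splenectomized mice, Present throughout. The splenectomized pair agreed closely and the intact pair did not. The difference of 40.6 ± 10.9 against 68.9 ± 1.98 was 1.73-fold, the smallest of the 7 (log2 fold change 0.79 ± 0.29 SE, adjusted p = 0.586 in limma, unadjusted p = 0.0386). Its log2 fold change was 0.51 without intact replicate 2, with an unadjusted p of 0.106.

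Of the activating receptors, Klrk1 encodes NKG2D, the receptor for stress-induced class I-like ligands. It was at 36.0 and 61.6 in intact mice and at 109 and 148 in splenectomized mice, Present on all 4 arrays. In both groups the arrays differed visibly, and the nearest pair across groups was 1.76-fold apart. The means of 48.8 ± 18.1 and 128 ± 27.8 differed 2.69-fold (log2 fold change 1.43 ± 0.34 SE, adjusted p = 0.390 in limma, unadjusted p = 0.00676). Ncr1, which encodes NKp46, was at 2.5 and 8.3 in intact mice, both called Absent. It was at 16.1 and 17.8 in splenectomized mice, both called Present. The step in detection call ran the same way in both pairs of arrays, while the size of the difference rested on the spread of the intact signals. The nearest arrays across groups were 1.94-fold apart, and the fitted log2 fold change was 1.89 ± 0.71 (SE, adjusted p = 0.588 in limma, unadjusted p = 0.0402). Without intact replicate 1 the log2 fold change was 1.03, and without intact replicate 2 it was 2.76.

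Klrb1c, the activating receptor known as NK1.1, was represented only by a probe set that the annotation also gives to Klrb1b, an inhibitory relative. That probe set was called Absent on all 4 arrays, at 1.8 and 10.3 in intact and 9.8 and 11.4 in splenectomized mice, with overlapping groups. It was not tested, and no value is given for Klrb1c itself.

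The detection calls came from the same arrays as the signals and are not a separate line of evidence. On each intact array 5 of the 7 probe sets were Present and on each splenectomized array 7 of 7. A change from Absent on both intact to Present on both splenectomized arrays was seen for 2 of the 7, and for 0.853% of all probe sets on the array that are not controls. These 2, Ncr1 and Klrc1 1426182_a_at, are the ones that passed the detection rule only through splenectomized mice. By its other probe set, 1425005_at, Klrc1 was Present on all 4 arrays. The reverse change was seen for 0 of the 7 and for 0.755% of all.

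**Figure D2:**
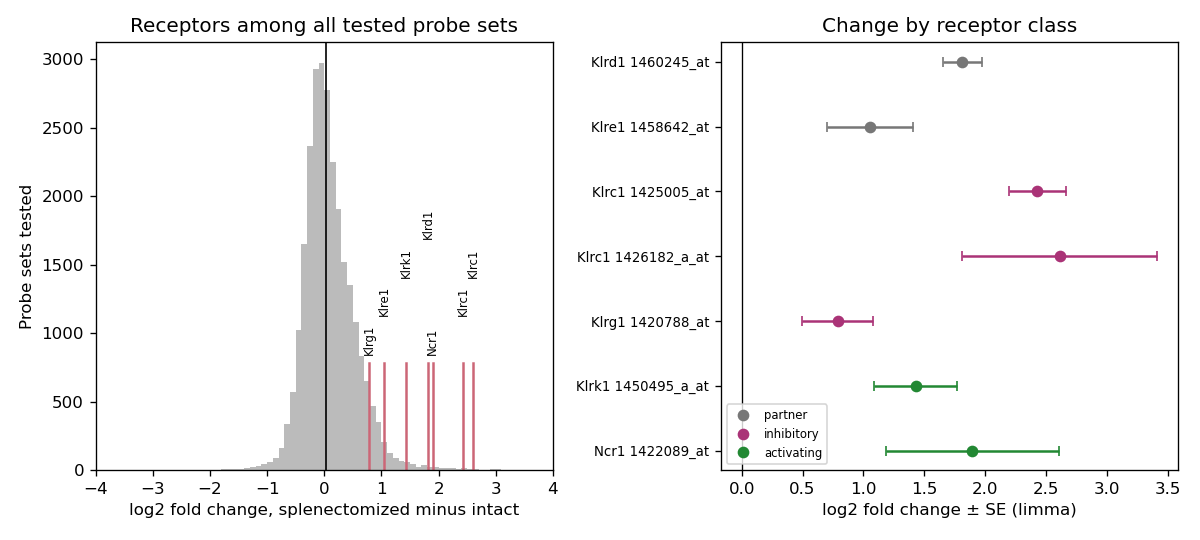
Left, histogram of the log2 fold change (splenectomized minus intact) over the 26285 probe sets tested, with a black line at their median of 0.03 and red lines at the 7 receptor probe sets. Right, the log2 fold change of each receptor probe set with its SE from limma, coloured by class: the values run from 0.79 (Klrg1) to 2.61 (Klrc1), and the value of the activating Klrk1 (1.43) lies between those of the inhibitory Klrg1 and Klrc1.

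Among all probe sets tested, 93.6% had a smaller log2 fold change than Klrg1, 97.4% than Klre1, 98.9% than Klrk1 and 99.4% than Klrd1. Klrc1 stood above 99.8% with probe set 1425005_at. With Ncr1 left out, since its intact signals were below detection, the order of the differences was Klrc1, Klrd1, Klrk1, Klre1 and Klrg1. Klre1 and Klrg1 lay within their SE of each other, and none of the steps was tested. The place of Klrk1 was not firm: without intact replicate 1 its log2 fold change of 1.04 was below those of Klre1 (1.28) and Klrg1 (1.07), and without intact replicate 2 its 1.82 was above that of Klrd1 (1.77).

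Inhibitory and activating receptors were contrasted through their changes, since signals of different probe sets are not on 1 scale. The mean log2 difference was 1.61 for the inhibitory receptors Klrc1 and Klrg1 and 1.66 for the activating receptors Klrk1 and Ncr1, and 1.43 for the partner chains Klrd1 and Klre1. The activating mean includes Ncr1, whose intact signals were below detection. The inhibitory mean minus the activating mean, each taken from log2 signals centred on the probe set's own average, was 0.75 and -0.70 on the intact arrays and 0.25 and -0.30 on the splenectomized arrays. The groups overlapped fully, and the contrast of -0.05 was far smaller than the distance between the intact arrays. It turned to 0.67 without intact replicate 1, to 0.22 without splenectomized replicate 2 and to 0.45 with a pseudocount of 16 added to each signal. A balance shifted toward either class was thus not detectable with these arrays.

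Single genes of the classes were also compared. Of the 4 pairs of an inhibitory with an activating receptor, the log2 ratio of Klrc1 to Klrk1 was 0.998 ± 0.54 (SE) higher in splenectomized mice and did not overlap between groups (exact permutation test, two-sided p = 0.333, the smallest that 4 arrays allow). The ratio of Klrc1 to Ncr1 differed by 0.53 ± 0.84, that of Klrg1 to Klrk1 by -0.64 ± 0.71 and that of Klrg1 to Ncr1 by -1.10 ± 1.15 (exact permutation test, p = 0.667 each). Adjusted over the 4 pairs, p was 0.667 for each.

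**Figure D3:**
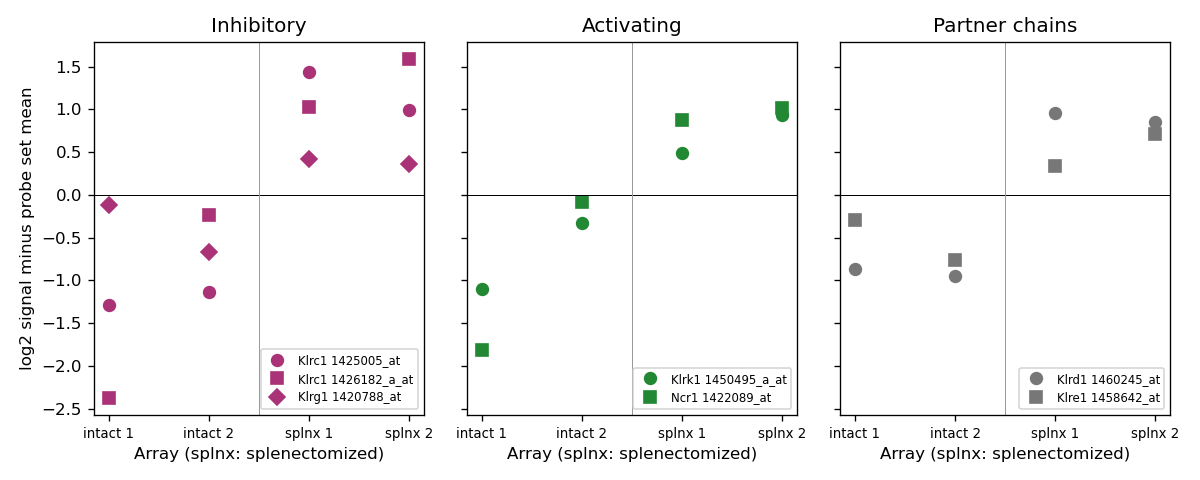
Log2 signal of each receptor probe set minus its own mean over the 4 arrays, in panels for inhibitory receptors, activating receptors and partner chains, with a vertical line between intact and splenectomized arrays. All points left of the line are below 0 and all points right of it above 0, and the lowest are Klrc1 1426182_a_at and Ncr1 on intact replicate 1, at -2.37 and -1.81.

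The intact pair differed more than the splenectomized pair for 5 of the 7 probe sets on the log2 scale. Which intact array was the lower was not the same for all: intact replicate 1 was below replicate 2 for 4 of the 7, among them both activating receptors, and above it for the other 3. Present calls covered 53.2% to 58.6% of probe sets per array, and log2 signals of any pair of arrays correlated across detected probe sets with Pearson's r of 0.944 to 0.978, where probe sets are not independent replicates. Eye markers varied between eyes: the summed signal of 5 of 6 listed markers with a probe set was 5356 on intact replicate 1 and 15730 on intact replicate 2, and 14510 and 12620 on the splenectomized arrays, with Cryaa, a lens crystallin, at 1564, 4791, 4905 and 4225 in that order. Intact replicate 1 thus carried the least eye signal, and the part of this in the receptor values was not tested. The sex-linked Eif2s3y, carried on the Y chromosome, was Present on all 4 arrays, at 138 and 209 in intact and 300 and 274 in splenectomized mice. Xist, carried on the X chromosome, was Absent at 6.3 on intact replicate 1 and Present at 21.3 on intact replicate 2. It was Present at 21.2 and 14.8 on the splenectomized arrays. Host and tumour transcripts were measured together, and the sex of each mouse was not tested.

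Relatives of these receptors in the natural killer gene complex had mixed directions. Of 13 other lectin-like receptors and ligands listed, 8 had a probe set and 5 were detected. Of the 5, 3 were higher and 2 lower in splenectomized mice, with a median log2 fold change of 0.13. Such a split is near that of all probe sets tested, of which 53.2% had a higher mean. Clec2d, which encodes a ligand of the inhibitory receptor Klrb1b, was at 326 and 782 in intact and 1239 and 1278 in splenectomized mice (log2 fold change 1.32, unadjusted p = 0.0188 in limma). It was the only one of the 5 at an unadjusted p under 0.05, where 5.49% of all probe sets tested were higher. Klrc2, which encodes the activating partner NKG2C of CD94, was Absent on all 4 arrays, and Klri2, a partner of Klre1, had no probe set of its own.

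The Ly49 receptors, many of which bind classical class I molecules, are products of near-identical genes, and probe sets with the suffix x can read several of them. Of 22 listed, 7 had a probe set and 5 were detected, Klra5 only through its calls in splenectomized mice. All 5 had a higher mean in splenectomized mice, as had 53.2% of all probe sets tested, with a median of 0.99 on the log2 scale. At an unadjusted p under 0.05 in limma, 3 were higher, beside 5.49% of all probe sets tested. Klra2 was at 38.3 and 34.2 in intact and 97.8 and 139 in splenectomized mice (log2 fold change 1.69, unadjusted p = 0.00112 in limma). Klra8, the activating Ly49H in C57BL/6 mice, was at 26.0 and 24.8 against 80.6 and 61.7, and Klra7 at 16.7 and 25.9 against 44.6 and 38.1, both read by probe sets with that suffix. The groups did not overlap for 4 of the 5, as was so in this direction for 20% of all probe sets tested. Which cells carried these transcripts was not tested.

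Signalling partners had changes in both directions. Of 19 listed adaptors and signalling proteins of activating receptors, 16 were detected, 11 higher and 5 lower, at a median of 0.20 on the log2 scale. Of all probe sets tested, 53.2% had a higher mean. In limma, 5 of the 16 were higher at an unadjusted p under 0.05, beside 5.49% of all probe sets tested. The adaptor gene Tyrobp (DAP12) was at 1677 and 1380 in intact and 2821 and 2886 in splenectomized mice (log2 fold change 0.91, unadjusted p = 0.00142 in limma), and Fcer1g at 1692 and 1571 against 2922 and 2907. Both are also strongly expressed by macrophages. The 5 listed macrophage markers all had a higher mean, as had 53.2% of all probe sets tested. Their summed signal was 5003 and 4559 in intact and 9125 and 9134 in splenectomized mice. The part of macrophages in these adaptor signals was not tested. Hcst, which encodes the NKG2D adaptor DAP10, was at 325 and 257 against 301 and 310, with overlapping groups (log2 fold change 0.08, unadjusted p = 0.666). Plcg1, a phospholipase of receptor signalling, was at 50.7 and 76.2 against 130 and 91.1.

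The phosphatases that inhibitory receptors recruit had log2 fold changes near 0 or below, with a median of -0.20 over 3 genes. Ptpn6 (SHP-1) was at 2193 and 2187 in intact and 1498 and 1919 in splenectomized mice (log2 fold change -0.37, unadjusted p = 0.0732 in limma), and Ptpn11 (SHP-2) at 915 and 922 against 775 and 826. Both were lower with no overlap between the groups, as were 19.7% of all probe sets tested. Of the 3, 0 had an unadjusted p under 0.05 in limma.

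Ligands were sparsely covered. Of 9 NKG2D ligands listed, H60c and Ulbp1 had a probe set of their own. H60c was at 98.4 and 283 in intact and 165 and 93.0 in splenectomized mice, and Ulbp1 at 23 and 24.9 against 27.5 and 21.9, so the groups overlapped for both. H2-T23, which encodes Qa-1, had no probe set annotated to it alone. The cadherin ligands of Klrg1 overlapped between groups as well, with Cdh2 at 63.5 and 284 against 271 and 168 and Cdh4 at 22.6 and 44.3 against 54.5 and 29.3.

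**Figure D4:**
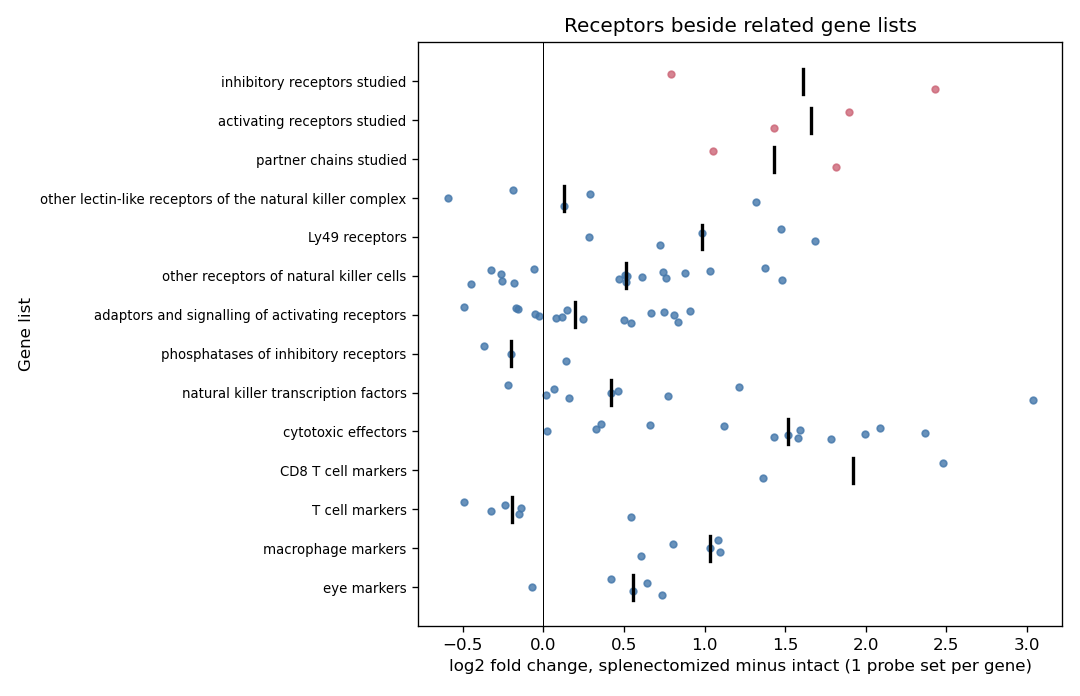
Log2 fold change (splenectomized minus intact) of each detected gene, 1 probe set per gene, in the receptor classes studied (red) and in related gene lists (blue), with black bars at the list medians. The receptors studied lie between 0.79 and 2.43, the cytotoxic effectors have a median of 1.52 and the T cell markers a median of -0.19.

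Other genes of natural killer cells and killer T cells were compared to place the receptors. Of 21 other receptors listed, 17 were detected, 11 higher and 6 lower (median log2 fold change 0.51), while 53.2% of all probe sets tested had a higher mean. In limma, 5 were higher at an unadjusted p under 0.05, beside 5.49% of all probe sets tested. The largest of these were Slamf7, a self-ligand receptor of killer cells, at 49.9 and 45.5 against 127 and 120, and the paired receptor gene Pilrb1 at 156 and 109 against 264 and 270. The third was Fcgr3, an Fc receptor that macrophages also make, at 861 and 865 against 1444 and 1474. The 6 lower genes, named here after their values were seen, were Cd160, S1pr5, Il21r, Cd96, Cd244a and Slamf6. Their log2 fold changes ran from -0.45 to -0.06, and 0 had an unadjusted p under 0.05 in limma. The groups did not overlap for 8 higher and 3 lower genes, as was so for 20% and 19.7% of all probe sets tested. Of 9 detected transcription factors 8 had a higher mean (median 0.42), as had 53.2% of all probe sets tested. In limma, 4 were higher at an unadjusted p under 0.05, beside 5.49% of all. Eomes, which natural killer cells and memory CD8 T cells share, was Absent at 2.2 and 14.3 in intact and Present at 54.4 and 38.9 in splenectomized mice, with the nearest arrays across groups 2.72-fold apart (unadjusted p = 0.0173 in limma). Tbx21, which encodes T-bet, was at 43.8 and 27 against 88.6 and 71.5, and Id2 at 827 and 941 against 1572 and 1451.

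Markers of the cells that could carry the receptors were higher in the same mice. The summed signal of 8 of 10 listed natural killer markers with a probe set, of which Ncr1 and Klre1 are themselves receptors studied, was 455 and 427 in intact and 1210 and 1107 in splenectomized mice. Most of it came from Gzma, a granzyme that killer T cells also make, and the other 7 summed to 130 and 193 in intact and 376 and 358 in splenectomized mice. Itga2, the integrin CD49b that defines mouse natural killer cells, was Absent on all 4 arrays, at 10.3 and 23.7 against 23.4 and 27.8. The CD8 T cell genes Cd8a and Cd8b1 summed to 65.4 and 65.6 in intact and 241 and 248 in splenectomized mice. Cd8b1 was at 21.9 and 30.8 against 145 and 144 (log2 fold change 2.48, unadjusted p = 0.000149 in limma), and Cd8a, Absent on both intact arrays, at 43.5 and 34.8 against 95.8 and 104. The part of natural killer cells and of CD8 T cells in the receptor signals was not tested.

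Markers shared by all T cells, the injected lymphoma included, went mostly the other way at small sizes. Of 6 detected, 1 was higher and 5 lower, while 53.2% of all probe sets tested had a higher mean. The 7 with a probe set had a summed signal of 10420 and 7925 in intact and 7319 and 8653 in splenectomized mice, so the groups overlapped. Cd247 and Zap70 were also listed among the adaptors and signalling proteins of activating receptors, so they do not mark T cells alone. Cd3e was at 435 and 283 against 281 and 280, and Zap70 at 501 and 345 against 263 and 331, and 0 of the 6 had an unadjusted p under 0.05. All 13 cytotoxic effector genes had a higher mean, as had 53.2% of all probe sets tested, with a median log2 fold change of 1.52. Of the 13, 10 were higher at an unadjusted p under 0.05 in limma, beside 5.49% of all probe sets tested. The list was chosen with earlier results of these data known. Gzmk, a granzyme of effector memory T cells, was Absent on both intact arrays at 22.6 and 25.2 and Present at 148 and 103 in splenectomized mice. It was thus detected only through splenectomized mice. Nkg7, Gzmb, Prf1 and Ifng had log2 fold changes of 2.09, 1.99, 1.12 and 1.59. Of the B cell markers, Cd79a was Absent on all 4 arrays and Ms4a1 at 7.6 and 5.8 against 22.2 and 23.

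The receptors' shared profile was also matched against other genes. Averaged over the 6 genes, the centred log2 signal was -0.91 and -0.65 in intact and 0.75 and 0.81 in splenectomized mice. Among 13142 other detected genes, the 6 closest by root mean square distance over the 4 arrays were Gm9706 (0.06), Ms4a4b (0.06), Fasl (0.07), AW112010 (0.07), Ankrd66 (0.09) and Blvrb (0.09), each distance on the log2 scale. Ms4a4b, a membrane protein gene of T and natural killer cells, was at 351 and 471 in intact and 1188 and 1206 in splenectomized mice. Fasl, the death ligand of killer lymphocytes, was at 17.1 and 19.9 against 48.2 and 51.5. Their log2 fold changes were 1.56 for Ms4a4b and 1.43 for Fasl. The other 4 had changes of similar size, at 1.54 for Gm9706, 1.46 for AW112010, 1.435 for Ankrd66 and 1.49 for Blvrb. Whether the closest genes as a set belong to killer lymphocytes was not tested. With 4 arrays in 2 groups, such a match says little more than that a gene differs between the groups by a similar amount.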

How the data were processed

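Total RNA of 4 eyes was hybridised to 1-colour Affymetrix arrays, from 500 ng of RNA per the labels' protocols. The authors deposited intensities (linear, scaled signals) and Present or Absent calls, from GCOS 1.4 and MAS5 per the submitters' processing notes, which do not state the scaling target. Log2 was taken of these signals without further scaling, after raising those under 0.1 to 0.1. Probe sets called Present on at least 2 of 4 arrays (26285 of 45037 without controls) were fitted in limma 3.58.1 under R 4.3.3 (lmFit, eBayes with an intensity trend, no covariate), with two-sided p-values adjusted by Benjamini-Hochberg over all of them. There were 2 residual degrees of freedom, and the script was tested on simulated data. Precision is limited by the number of arrays. A gene in a list stands for its detected probe set of highest mean log2 signal.

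Names came from the platform annotation, updated through Entrez identifiers in RefSeq: 34945 had 1 symbol, 932 several and 9160 none, and 34741 matched. A fold is the difference of mean log2 signals; for a group Absent on both arrays it has no firm size, and the nearest arrays across groups are given. Per list the named genes were up to 3 with the largest log2 fold change at an unadjusted p under 0.05, or else the 2 of smallest p, besides a fixed set of 12. The receptors and lists were chosen with earlier results of these data known. Alternatives covered scaling, pseudocount, detection filter, variance trend, 1 probe set per gene, replicate blocks and leaving out each array.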

Additional observations from a re-analysis of the deposited data

How the results depend on the processing

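All 88 recomputed log2 fold changes of single receptor probe sets, over 13 alternatives, stayed above 0. Most of this was fixed in advance. The groups did not overlap for any receptor probe set, so leaving out 1 array or adding a pseudocount could not change the sign. Changes of detection filter, variance trend, replicate block or probe set choice left the log2 fold changes as they were. Only quantile normalization and median centring could have reversed a sign. The number of receptor probe sets at an adjusted p under 0.05 in limma was 0 to 5 when 1 array was left out, and that over all probe sets 0 to 3574. The high counts came without intact replicate 2 (unadjusted p under 0.05 for 7652 of 26285 probe sets), and without intact replicate 1 the counts were 2 and 329; in such fits only the complete pair gives a spread. Counts at an unadjusted p under 0.05 ran from 2 to 6 receptor probe sets, lowest without splenectomized replicate 2 (2) and without splenectomized replicate 1 (4), their median log2 fold change from 1.28 to 1.82, and the inhibitory minus activating contrast from -0.78 to 0.67, so it was reversed without intact replicate 1 (0.67) and without splenectomized replicate 2 (0.22). With a pseudocount of 16 the median was 0.98 and the contrast 0.45, and the cause is the added constant, which shrinks changes of dim probe sets most. With Present calls required on all 4 arrays the median of the 5 remaining probe sets was 1.43, and the contrast could not be computed because Ncr1 was left out. With 1 probe set per gene, 4 of 6 had an unadjusted p under 0.05, Klrg1 and Ncr1 (0.0512) being just above it. Quantile normalization called 1 probe set over all (adjusted p 0.041) and no receptor. A replicate block called 0 probe sets and 0 receptors, with 5 of 7 at an unadjusted p under 0.05. Same-numbered arrays deviated in opposite directions (r = -0.33 over 26285 probe sets), and a block with crossed pairing, chosen after seeing the data, called 358 probe sets and 2 of the receptors' 7.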

Other observations

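Of the 104 other genes on the lists with a probe set, 5 changed from Absent on both intact to Present on both splenectomized arrays, and 0 the other way. Over all probe sets that are not controls, these shares were 0.853% and 0.755%. The 5 genes are Klra5, a Ly49 receptor gene, Crtam, a receptor of activated killer lymphocytes, Eomes, Gzmk and Cd8a. All 5 passed the detection rule only through splenectomized mice. Crtam was at 4.2 and 10.7 in intact and 18.5 and 18.9 in splenectomized mice, with the nearest arrays across groups 1.73-fold apart (unadjusted p = 0.0507 in limma). Klra5 was at 5.6 and 15.1 against 9.5 and 13.2, so its signals overlapped between the groups although its calls did not. Klrb1a, a relative of Klrb1c, was Absent at 0.6 and 0.7 in intact mice and at 11.1 (Present) and 5.5 (Absent) in splenectomized mice. Crtam, Klra5 and Klrb1a are named here after their values were seen. Clec2i, which encodes a ligand of a Klrb1 family receptor, went the other way from Clec2d, at 411 and 427 in intact and 219 and 352 in splenectomized mice (unadjusted p = 0.0598), and was also chosen after its values were seen.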
